A study of Mus musculus with 12 samples.

Results

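Supporting cells hold the hair cells of the organ of Corti in place, and each row of them has its own name and shape. The genes described here are 9 that are used to mark the subtypes of these cells, inner phalangeal, pillar, Deiters' and Hensen's cells among them: S100a1, S100b, Prox1, Slc1a3, Fabp7, Cd44, Cryab, Npy and Ednrb. They were taken by symbol from the 28686 gene symbols counted, and all 9 were among the 18459 genes with enough reads to be tested. The reads came from RNA of dissected cochlear sensory epithelia, taken 6 days after birth (P6). There were 6 mutants, Sox2CreER/+Jag1fl/fl, and 6 littermates without the Cre allele, Sox2+/+, and all carry the strain label C57BL/6;129SV. All pups had been given tamoxifen at P0 and P1, which switches on the CreER recombinase. Controls had no CreER allele and carried either Jag1+/fl or Jag1fl/fl. Since CreER is made from the Sox2 locus, it acts in the cells that use Sox2, all supporting cell subtypes among them. Mutants have 1 intact copy of Sox2 and controls have both, so the effects of Jag1 and of Sox2 dose cannot be told apart by genotype. The question put to these genes is whether deletion of Jag1 between birth and P6 altered what supporting cells express.

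Jag1 (Jagged1) is a ligand of the Notch receptors, which release a fragment into the nucleus of the receiving cell when a ligand on a neighbour binds them. That fragment joins the DNA-binding protein RBPJ and switches on genes such as those of the Hes and Hey families. In the cochlea Notch signaling first helps to set aside the sensory region and then keeps supporting cells from becoming hair cells. Inner phalangeal and border cells surround the inner hair cells, pillar cells form the tunnel of Corti, Deiters' cells sit under the outer hair cells, and Hensen's cells lie beyond them. Several of the marker genes are not private to supporting cells: S100b, Slc1a3, Fabp7, Cryab and Ednrb are also known from glia elsewhere in the nervous system, and Ednrb from melanocytes. In RNA from dissected tissue, fewer cells of a type and less RNA per cell cannot be told apart, and reads cannot be assigned to the cell type they came from.

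Each control library held 28498549 to 34430252 counted reads and each mutant library 31899265 to 36134983, and each marker gene rested on 285 to 29799 reads per mouse. Counting error at the mean count of each gene was 0.617% to 4.73% of a value, while the variation between mice that edgeR fitted was 11.1% to 23.6%. Values are given in CPM, the reads of a gene divided by the size of its library after TMM scaling. Jag1 itself lay between 83 and 118 CPM in controls and between 24.2 and 42.9 CPM in mutants, with no overlap and a log2 fold change of -1.48 (edgeR quasi-likelihood test with Benjamini-Hochberg adjustment, adjusted p = 0.000258), in the direction the labels give. Sox2 lay between 22.7 and 40.2 CPM in controls and between 19.9 and 29.4 CPM in mutants (log2 fold change -0.45, edgeR adjusted p = 0.143), and DESeq2, run as an alternative, called it (-0.45, adjusted p = 0.0349). Markers of myelinating Schwann cells, the glia of the auditory nerve, differed widely between libraries and were highest in mutants 1 and 2. Several differences between the genotypes are therefore also given without these mice.

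None of the 9 marker genes passed the test of a difference between the genotypes once p-values were adjusted over all genes tested. edgeR called 0 of 9 at an adjusted p under 0.05, against 35 of all 18459 genes (0.19%). DESeq2 also called 0 of 9, against 3.37% of all genes, and limma-voom called 0 of 9, against 19 of all genes. At an unadjusted p under 0.05, edgeR picked out 1 of 9, which was S100a1, against 10.6% of all genes, or 4.04% for genes lower in mutants as S100a1 was. Both DESeq2 and limma-voom picked out S100a1 and Slc1a3, against 10.8% and 10% of all genes. For 0 of the 9 were the ranges of the genotypes apart, as they were for 0.997% of all genes. The log2 fold change of mutants over controls was above 0 for 5 and below 0 for 4, with a median of 0.01, and 49.1% of all genes were below 0. The sizes of the differences, without sign, had a median of 0.19 on the log2 scale against 0.09 over all genes. In edgeR with no covariates, the 95% interval of each marker gene except S100a1 reached 0 or went past it. The interval of Slc1a3 lay below 0 with DESeq2 (-0.389 to -0.00532) and with limma-voom (-0.402 to -0.00388).

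**Figure D1:**
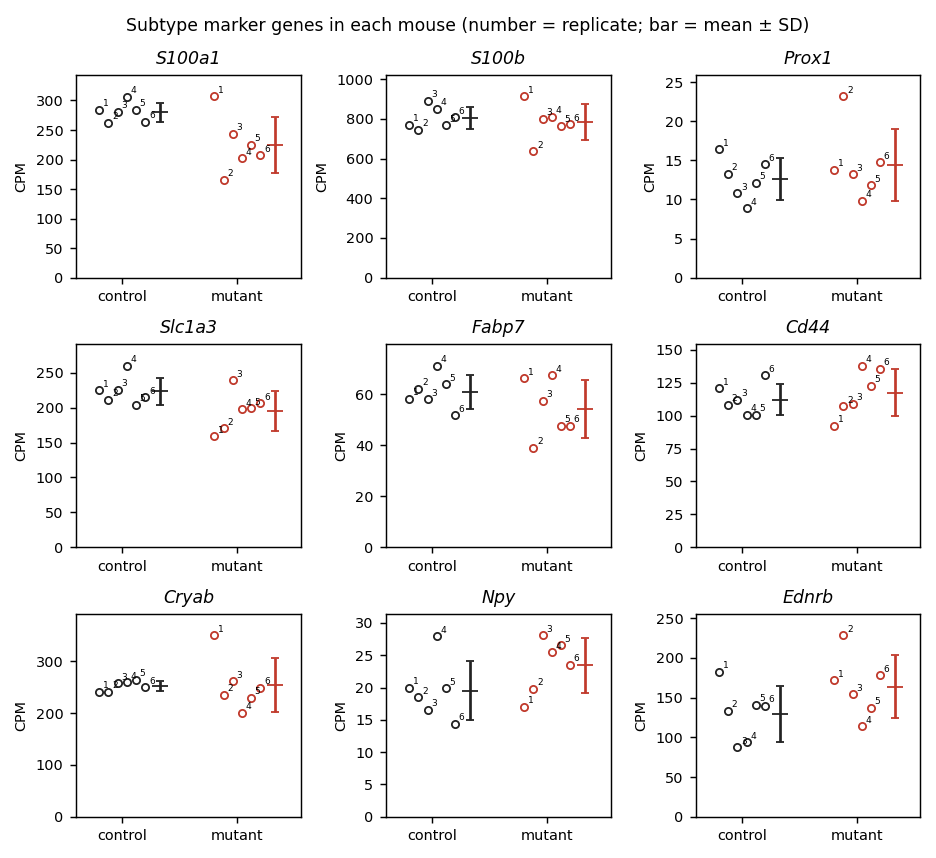
CPM of the 9 marker genes (vertical axes, from 0) in each of 6 control and 6 mutant mice (numbered circles, with the mean and SD as a bar beside them). In S100a1, 5 mutants sit below all controls and mutant 1 sits above them, and Cryab and S100a1 are tightly grouped in controls and spread out in mutants.

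S100a1 and S100b encode small calcium-binding proteins of the S100 family that can pair with one another, and S100a1 protein marks pillar and Deiters' cells. S100a1 lies on chromosome 3 (GRCm38, chr3:90511034-90514392, minus strand) and S100b on chromosome 10 (chr10:76253853-76261159, plus strand). In controls S100a1 ranged from 262 to 306 CPM with a median of 283. In mutants it ranged from 166 to 307 CPM with a median of 216. Of the mutants, 5 lay below the lowest control, between 166 in mutant 2 and 243 in mutant 3, while mutant 1, at 307 CPM, lay just above the highest. S100a1 averaged 280 ± 16.1 CPM (SD, n = 6) in controls against 225 ± 47.8 (SD, n = 6) in mutants, or 80.4% of the control level, with a 95% interval of 67.8% to 95.2%.

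On the log2 scale the S100a1 difference was -0.32 with a standard error of 0.11. It did not pass the test over all genes (edgeR adjusted p = 0.276). An exact two-sided permutation test over all divisions of the mice, which can give no p below 0.00216, gave p = 0.0281 for S100a1. This p is not adjusted, although the same test was run for each of the marker genes. It was the smallest among them, followed by 0.0736 for Slc1a3, so it is not separate evidence of a difference in S100a1. Of the mice left out in turn, mutant 1 moved the log2 difference the most. Without mutant 1 the log2 difference of S100a1 was -0.42 (edgeR adjusted p = 0.0566), without mutant 2 it was -0.24 (adjusted p = 0.488), and without both mutants 1 and 2 it was -0.35 (adjusted p = 0.0916).

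S100b had the highest level of the 9 per length, and its genotype means were close. It ranged from 744 to 892 CPM in controls, with a median of 789, and from 636 to 914 CPM in mutants, with a median of 787. The lowest and the highest mutants were the same mice as for S100a1, mutant 2 and mutant 1. The log2 difference was -0.04 ± 0.08 (SE), so that mutants held 97.3% of the control level with a 95% interval of 86.2% to 109.8% (edgeR adjusted p = 0.940).

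Prox1 encodes a homeodomain transcription factor of the Prospero family that is found in developing pillar and Deiters' cells. It lies on chromosome 1 (chr1:190118035-190170714, minus strand), and 133 bases of its exons, 1.59% of them, are shared with the antisense transcript Prox1os, which itself had at most 0.758 CPM. Per length, Prox1 had the lowest level of the 9. It ranged from 8.88 to 16.4 CPM in controls, with a median of 12.7, and from 9.82 to 23.2 CPM in mutants, with a median of 13.5. All mutants but mutant 2, at 23.2 CPM, lay within the range of the controls. The log2 difference was 0.19 ± 0.19 (SE), with a 95% interval from -0.22 to 0.60 (edgeR adjusted p = 0.846), and it was 0.0025 without mutant 2.

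Slc1a3 encodes GLAST, the glutamate transporter with which inner phalangeal and border cells clear the transmitter of the inner hair cells. It lies on chromosome 15 (chr15:8634124-8710764, minus strand). Controls ranged from 204 to 260 CPM with a median of 220, and mutants from 159 to 239 CPM with a median of 199. In 4 of 6 mutants Slc1a3 lay below the lowest control, and mutants 1 and 2 were the lowest of all, at 159 and 171 CPM. Mutants held 87.4% of the control level (95% interval 76.2% to 100.3%), a log2 difference of -0.19 ± 0.09 (SE) that did not pass (edgeR adjusted p = 0.487, exact two-sided permutation p = 0.0736). The log2 difference of Slc1a3 was -0.09 without mutants 1 and 2 (95% interval -0.26 to 0.09).

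Fabp7 encodes a fatty acid binding protein of glia and of supporting cells, and lies on chromosome 10 (chr10:57784881-57788450, plus strand). Controls ranged from 51.7 to 71.1 CPM with a median of 60.2, and mutants from 38.9 to 67.5 CPM with a median of 52.5. For Fabp7, 3 mutants lay below the lowest control and the other 3 among the controls. The log2 difference was -0.17 ± 0.12 (SE), with a 95% interval from -0.43 to 0.10 (edgeR adjusted p = 0.756), and it was -0.09 without mutant 2.

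Cd44, the receptor for the matrix polymer hyaluronan and a marker of outer pillar cells, lies on chromosome 2 (chr2:102811141-102901665, minus strand). It ranged from 101 to 131 CPM in controls, with a median of 110, and from 92.1 to 138 CPM in mutants, with a median of 116. The range of the controls lay within that of the mutants. The log2 difference was 0.07 ± 0.10 (SE), with a 95% interval from -0.15 to 0.28 (edgeR adjusted p = 0.913). For Cd44 it ran from 0.0145 without mutant 4 to 0.13 without mutant 1, and it was 0.17 without both mutants 1 and 2.

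Cryab encodes αB-crystallin, a small heat shock protein that keeps other proteins from clumping. It lies on chromosome 9 (chr9:50751325-50756636, plus strand) and shares 252 bases, 17% of its exons, with Hspb2 on the other strand. Whether the reads were counted by strand is not given in the sources used here. Hspb2 had no more than 7.18 CPM in any mouse, which does not show how reads on the shared bases were counted. Cryab was held between 241 and 264 CPM in controls, with a median of 253. In mutants the median was 242 and the range 200 to 350 CPM, with mutant 1 far above the controls and 3 mutants below them. The means were nearly the same, 252 ± 9.66 and 254 ± 51.2 CPM (SD, n = 6 each), and the log2 difference was 0.01 with a 95% interval from -0.21 to 0.24 (edgeR adjusted p = 0.990).

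Npy encodes neuropeptide Y, a secreted peptide, and lies on chromosome 6 (chr6:49822710-49829507, plus strand). Controls ranged from 14.4 to 27.9 CPM with a median of 19.2, and mutants from 17.0 to 28.1 CPM with a median of 24.5. For Npy, 5 of 6 mutants lay above the control median, while control 4 was nearly as high as the highest mutant. The log2 difference was 0.26 ± 0.15 (SE), with a 95% interval from -0.07 to 0.59 (edgeR adjusted p = 0.630).

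Ednrb encodes the endothelin B receptor, which melanocytes and enteric neurons need to develop, and lies on chromosome 14 (chr14:103814625-103844402, minus strand). It varied the most between control mice, from 87.7 to 183 CPM with a median of 136, and ranged from 114 to 228 CPM in mutants with a median of 163. Of the mutants, 5 of 6 lay above the control median, but only mutant 2 lay above the highest control. The log2 difference was 0.34 ± 0.19 (SE), the largest upward value of the 9, with a 95% interval from -0.07 to 0.75 (edgeR adjusted p = 0.608). For Ednrb it ran from 0.22 without mutant 2 to 0.46 without control 1.

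**Figure D2:**
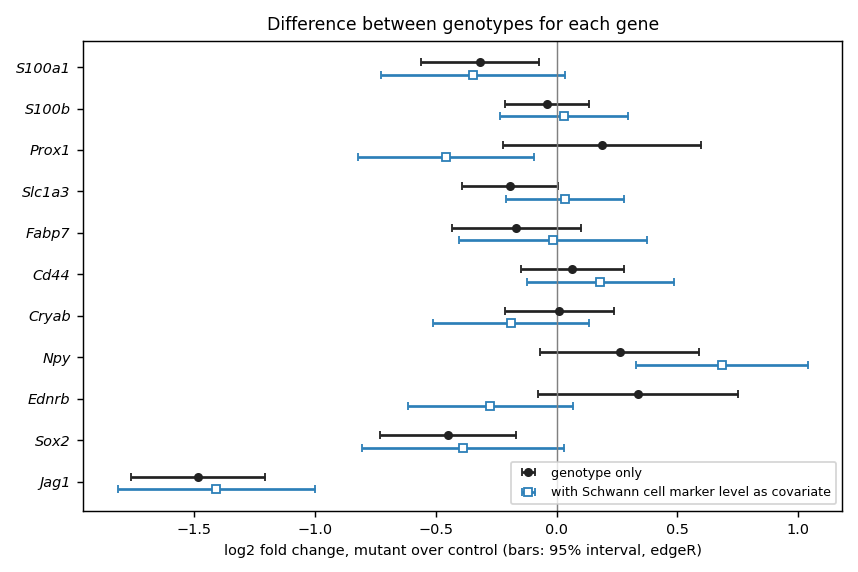
Log2 fold change of mutants over controls (horizontal axis) with its 95% interval from edgeR for the 9 marker genes, Sox2 and Jag1, from genotype alone (black circles) and with the Schwann cell marker level of each mouse as a covariate (blue squares). Jag1 is at -1.48 and -1.41, and Prox1 and Ednrb move from above 0 to below 0 with the covariate.

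The spread between mice of the same genotype was also compared. The SD of log2 CPM was larger in mutants than in controls for 7 of 9 marker genes, as it was for 60.2% of all genes tested. It was 0.30 against 0.08 for S100a1, a ratio of 3.6 that was above that of 98.4% of genes, and 0.27 against 0.06 for Cryab, a ratio of 4.88 that was above that of 99.5% of genes. The median ratio over all genes was 1.13. For the other genes with a larger SD in mutants the ratio lay between 1.32 in Prox1 and 2.0 in Fabp7, and for Npy and Ednrb it was 0.86 in each. These ratios are a description of 6 mice against 6 and were not tested. In S100a1 and Cryab mutant 1 was the highest of all 12 mice. Without mutant 1 the ratios were 2.52 for S100a1 and 2.63 for Cryab, against a median of 0.917 over all genes, and stood above those of 95.7% and 96.2% of genes.

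Levels of different genes can be compared only per length, and for this the CPM of each gene was divided by the kilobases of its merged exons. In controls S100b came first at 543 ± 38.1 CPM per kb (SD, n = 6), followed by S100a1 at 404 ± 23.2 and Cryab at 171 ± 6.53. These levels were above those of 99.1% to 99.8% of the genes tested, and the ranges of the 3 genes did not overlap. Fabp7 at 48.7 ± 5.27, Npy at 34.5 ± 8.19, Ednrb at 30.4 ± 8.18 and Slc1a3 at 26.2 ± 2.31 CPM per kb followed. In this stretch the range of each gene overlapped that of the next over the 6 controls. The ranges of Fabp7 (41.4 to 56.9) and Slc1a3 (23.9 to 30.5) did not overlap. The ranges alone do not fix the order of neighbours, and levels within single mice were not compared. Cd44 at 16.6 ± 1.74 and Prox1 at 1.51 ± 0.319 CPM per kb came last, each apart from the gene before it. The order of the means was the same in mutants. With the longest transcript as the length, Slc1a3 moved ahead of Npy and Ednrb and the other places were kept in order.

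**Figure D3:**
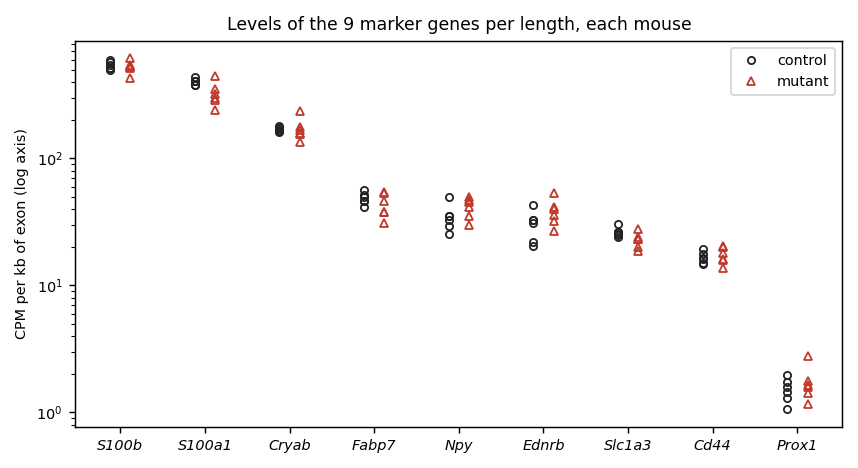
Levels of the 9 marker genes in CPM per kilobase of exon (vertical log axis), in each of 6 controls (circles) and 6 mutants (triangles). S100b, S100a1 and Cryab stand above the rest, each of Fabp7, Npy and Ednrb overlaps the next in the order Fabp7, Npy, Ednrb, Slc1a3, and Prox1 is lowest.

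Other cell types in the dissected tissue were followed with 8 lists of marker genes that hold none of the 9. No marker was at 0 in all mice. The 13 Schwann cell markers summed to between 299 and 1162 CPM in controls and between 893 and 5086 CPM in mutants, with mutants 1 and 2 at 5086 and 3801 CPM. All 13 had a log2 fold change above 0 with a median of 1.72, and all 13 had an unadjusted p under 0.05, though edgeR called 0 of them after adjustment. Over all genes, 10.6% had an unadjusted p under 0.05 and 0.19% were called. The 16 neuronal markers summed to between 227 and 371 CPM in controls and between 253 and 1631 CPM in mutants, highest in mutant 4, with 15 of 16 above 0, 13 of 16 at an unadjusted p under 0.05 and 0 called. The 10 macrophage markers were all below 0 and summed to 423 to 534 CPM in controls and 352 to 441 CPM in mutants, with 6 at an unadjusted p under 0.05 and 0 called. Hair cell markers summed to 236 to 293 CPM in controls and 233 to 301 CPM in mutants. The sums of melanocyte markers (802 to 1181 and 700 to 1117 CPM), strial marginal cell markers (867 to 1301 and 961 to 1221), fibroblast markers (9641 to 11794 and 9052 to 10694) and endothelial markers (591 to 649 and 534 to 619) also overlapped between controls and mutants. The log2 fold change was below 0 for 7 of 12 hair cell markers and 5 of 7 melanocyte markers. It was below 0 for all 5 strial, all 8 fibroblast and 6 of 7 endothelial markers, against 49.1% of all genes.

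To ask which marker genes moved with these cell types from mouse to mouse, the mean of each genotype was removed and the log2 deviations of the 12 mice were correlated, for 90 pairs of a marker gene with a marker list, Jag1 or Sox2. Of the 90 pairs, 2 passed at an adjusted p under 0.05 for Pearson's r, and both were with the Schwann cell list. Prox1 followed it with r = 0.84 (permutation p = 0.0004, adjusted p = 0.036) and Spearman's rho = 0.867 (permutation p = 0.00051, adjusted p = 0.0459). Without the mice farthest from the median, control 4 and mutant 4, r was 0.71. Within controls alone r was 0.94, and within mutants alone it was 0.78. Ednrb followed it with r = 0.83 (permutation p = 0.00098, adjusted p = 0.0441) and rho = 0.755 (permutation p = 0.00761, adjusted p = 0.242), or r = 0.73 without the same 2 mice. For Ednrb r was 0.83 within controls and 0.86 within mutants. With the neuronal list r over the 12 mice was 0.21 for Prox1 and 0.24 for Ednrb, and neither passed. Within controls alone these values were 0.91 and 0.85, and within mutants alone -0.07 and -0.13. Without mutants 4 and 5, the farthest from the median of that list, they were 0.74 and 0.77.

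With the Schwann cell list Npy and Slc1a3 went the other way, without passing the adjustment. For Npy with the Schwann cell list r was -0.72 (permutation p = 0.0147, adjusted p = 0.441) and rho was -0.734 (permutation p = 0.0159, adjusted p = 0.357), and r was -0.55 without control 4 and mutant 4. For Slc1a3 r was -0.69 (permutation p = 0.0242, adjusted p = 0.476) and rho was -0.797 (permutation p = 0.00807, adjusted p = 0.242), and r was -0.65 without these mice. For S100a1 r was -0.01 (permutation p = 0.989, adjusted p = 0.989) and rho was -0.105 (permutation p = 0.760, adjusted p = 0.9002), and r was 0.02 without them. Within controls alone the r of S100a1 was -0.68 and within mutants 0.15. No deviation of the 9 genes was tied to Sox2, to Jag1 or to the hair cell, melanocyte, macrophage, fibroblast, strial, endothelial or neuronal list by an adjusted p under 0.05.

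**Figure D4:**
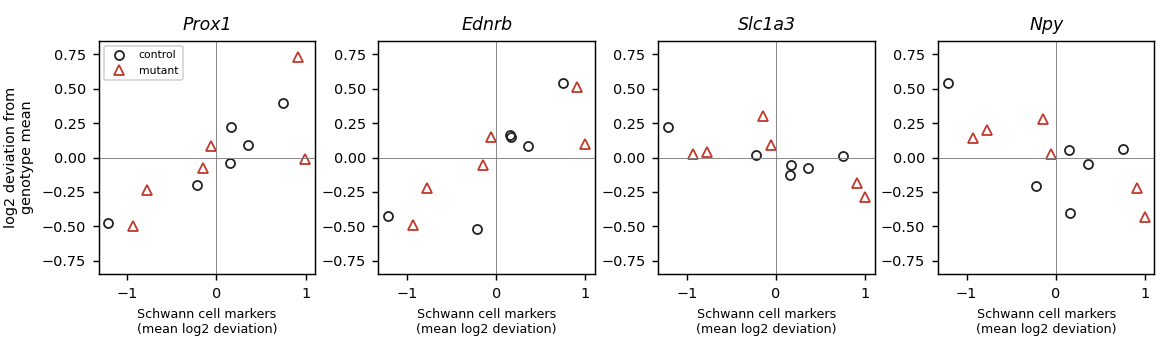
Deviation of log2 CPM from the genotype mean for Prox1, Ednrb, Slc1a3 and Npy (vertical axes) against the mean log2 deviation of 13 Schwann cell markers (horizontal axes), 1 point per mouse (6 control circles, 6 mutant triangles). Prox1 and Ednrb climb with the Schwann cell markers (r = 0.84 and 0.83), and Slc1a3 and Npy descend (r = -0.69 and -0.72).

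The comparison of genotypes was therefore also made with the Schwann cell level of each mouse as a covariate. The log2 difference of Prox1 then went from 0.19 to -0.46 (SE 0.17, edgeR adjusted p = 0.840) and that of Ednrb from 0.34 to -0.27 (SE 0.16, adjusted p = 1.0). Npy went from 0.26 to 0.69 (SE 0.17, adjusted p = 0.373) and Slc1a3 from -0.19 to 0.04 (SE 0.11, adjusted p = 1.0). S100a1 went from -0.32 to -0.34, with a larger standard error of 0.18 (adjusted p = 1.0). No marker gene was called, in a fit that called 3 of all genes, against 35 without the covariate. Leaving out mutants 1 and 2 in place of the covariate gave -0.03 for Prox1, 0.17 for Ednrb and 0.41 for Npy. Because the summed Schwann cell markers of all 6 mutants lay above the control median, the covariate and the genotype overlap, and how much of each difference belongs to Schwann cells was not tested.

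Among the 9 genes themselves, 36 pairs were compared in the same way and 1 passed the adjustment. Prox1 and Ednrb moved together with r = 0.91 (permutation p = 0.00016, adjusted p = 0.00576) and rho = 0.846 (permutation p = 0.00143, adjusted p = 0.0515), and r was 0.90 without mutants 2 and 4. S100a1 and S100b had r = 0.81 (permutation p = 0.0167, adjusted p = 0.120) and rho = 0.503 (permutation p = 0.113, adjusted p = 0.314), but r was 0.26 without mutants 1 and 2, so that this relation rests on those mice. Slc1a3 and Npy had r = 0.78 (permutation p = 0.00329, adjusted p = 0.0592) and rho = 0.790 (permutation p = 0.00642, adjusted p = 0.116), and r was 0.70 without mutants 1 and 3. The promoters of Prox1 and Ednrb, the pair that passed, are shown from RefSeq on GRCm38.p6, from 250 bases before to 50 bases after each start, along the strand of the gene. The capitals mark TGGGAA on either strand (TTCCCA when read on the other), the letters that RBPJ binds.
Prox1, start A, chr1:190170778-190171077, minus strand: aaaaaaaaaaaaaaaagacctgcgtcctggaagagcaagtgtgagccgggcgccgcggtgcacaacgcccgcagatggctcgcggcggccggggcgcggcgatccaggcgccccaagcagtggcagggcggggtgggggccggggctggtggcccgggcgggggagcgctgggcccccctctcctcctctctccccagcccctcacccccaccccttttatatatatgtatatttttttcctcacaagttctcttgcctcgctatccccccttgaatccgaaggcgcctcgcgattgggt
Prox1, start B, chr1:190169466-190169765, minus strand: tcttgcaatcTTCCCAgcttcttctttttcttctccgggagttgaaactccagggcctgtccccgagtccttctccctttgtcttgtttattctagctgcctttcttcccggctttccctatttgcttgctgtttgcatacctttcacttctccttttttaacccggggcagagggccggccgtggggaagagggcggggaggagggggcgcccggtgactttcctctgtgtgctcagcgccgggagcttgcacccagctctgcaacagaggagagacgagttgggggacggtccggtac
Ednrb, chr14:103843652-103843951, minus strand: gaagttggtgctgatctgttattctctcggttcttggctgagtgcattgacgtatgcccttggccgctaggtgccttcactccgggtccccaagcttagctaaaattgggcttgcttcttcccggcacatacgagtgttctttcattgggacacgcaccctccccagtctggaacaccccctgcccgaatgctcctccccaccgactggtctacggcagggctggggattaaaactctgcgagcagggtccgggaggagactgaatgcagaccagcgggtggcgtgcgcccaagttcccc
Start B of Prox1 held 1 match, and start A and the Ednrb window held 0. Over the 9 windows found for 8 of the marker genes, 4 held at least 1 match, against 25.6% of all 32851 windows of this length. Besides Prox1 these were S100b and Fabp7 with 1 each and Cd44 with 2. A match is a string of letters and no sign of binding.

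**Figure D5:**
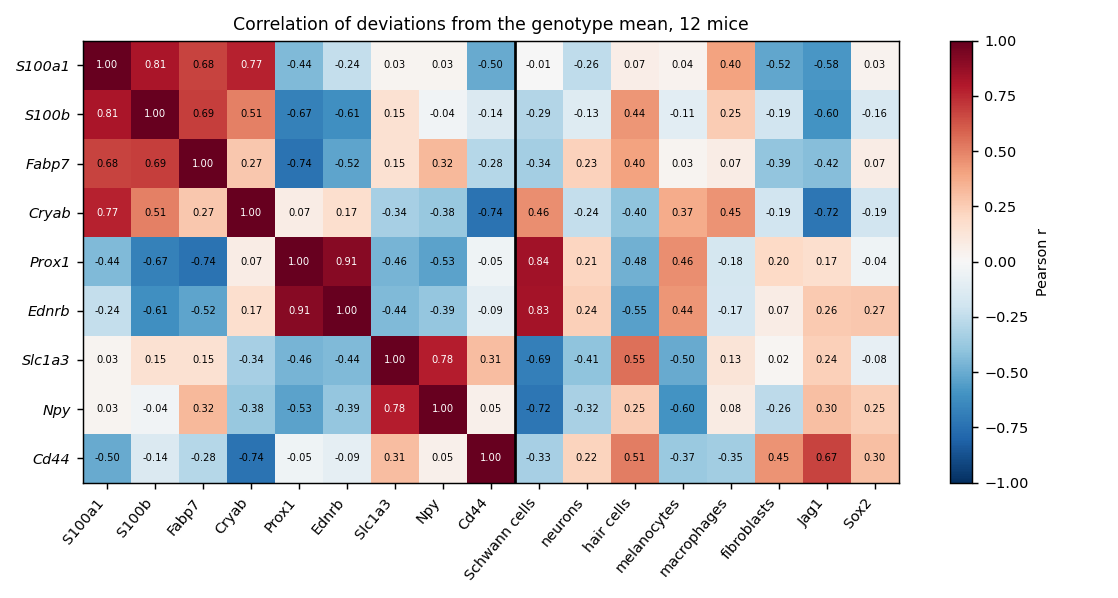
Pearson r of log2 deviations from the genotype mean over 12 mice, for each of the 9 marker genes (rows) with one another (left of the line) and with 6 of the 8 marker lists, Jag1 and Sox2 (right of it), from -1 in blue to 1 in red. All pairs among S100a1, S100b, Fabp7 and Cryab are above 0 (0.27 to 0.81), but none of them passed the adjustment. Without mutants 1 and 2, r was 0.26 for S100a1 with S100b, 0.18 for S100a1 with Fabp7 and 0.24 for S100b with Fabp7. It was 0.04 for S100b with Cryab and 0.59 for S100a1 with Cryab. Prox1 and Ednrb stand together at 0.91 and share the Schwann cell column, and Slc1a3 and Npy stand together at 0.78.

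For comparison, 28 other genes known from supporting cells were read from the same fit. edgeR called 2 of the 28, Hey1 and Lfng, both lower in mutants, against 0.19% of all genes. Of the 28, 11 had an unadjusted p under 0.05 (39.3%, against 10.6% of all genes), of which 10 were lower and 1 was higher. Among these 10 were Sox2, whose dose differs by genotype, and Hey1, Lfng and Hes5 of the Notch pathway. The list was chosen with earlier results of these data known, so its shares are not independent evidence. The median log2 fold change was -0.11, with 20 of 28 below 0, against 49.1% of all genes. Hey1, a transcriptional repressor switched on by Notch, lay between 43.9 and 56.6 CPM in controls. In mutants Hey1 lay between 25.7 and 34.3 CPM, with no overlap, as was so for 0.997% of all genes. Its log2 difference was -0.74 ± 0.09 (SE, edgeR adjusted p = 0.00204). Lfng, which adds a sugar to Notch receptors, lay between 55.0 and 60.5 CPM in controls and between 35.2 and 48.2 CPM in mutants, also with no overlap (log2 difference -0.45 ± 0.07, edgeR adjusted p = 0.0204). Leaving out control 2, 4, 5 or 6, or mutant 2 or 6, put the adjusted p of Lfng between 0.0525 and 0.0747. With the Schwann cell covariate neither was called, and the log2 difference was -0.70 for Hey1 (SE 0.13, edgeR adjusted p = 0.155) and -0.27 for Lfng (SE 0.08, adjusted p = 0.691). That fit called 3 of all genes, against 35 without the covariate.

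The next by p were Hes5 and Ngfr. Hes5, another Notch target, had only 0.208 to 0.642 CPM in controls and 0.0607 to 0.254 CPM in mutants (log2 difference -1.36 ± 0.34, edgeR adjusted p = 0.0958). Ngfr, the low-affinity neurotrophin receptor p75, is a marker of pillar cells and also of Schwann cells, and it averaged 10.2 ± 2.18 CPM in controls against 26.5 ± 17.3 CPM in mutants (SD, n = 6 each), for a log2 difference of 1.38 ± 0.36 (edgeR adjusted p = 0.121). Single mutants lay between 12.004 and 59.1 CPM. The difference between the 9 subtype markers and these 28 genes was not tested.

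The relatives of each marker gene were read as well. In the S100 family, 12 of 17 genes were tested and 0 called, with a median log2 fold change of -0.09. S100a3 averaged only 0.235 ± 0.0854 CPM in controls against 0.655 ± 0.416 in mutants (log2 difference 1.44, edgeR adjusted p = 0.133), so that its value rests on few reads. S100a16 was at 76.1 and 67.6 CPM (-0.17, adjusted p = 0.682) and S100a14 at 0.975 and 0.823 CPM (-0.24, adjusted p = 0.777). Of the fatty acid binding proteins 5 of 10 were tested and 0 called, with a median of 0.38. The 3 of these at an unadjusted p under 0.05 were all higher in mutants, while 10.6% of all genes had such a p. Pmp2, the fatty acid binding protein of myelin, was at only 0.0567 and 0.283 CPM (2.22, edgeR adjusted p = 0.110), so that its value rests on few reads. Fabp3 was at 4.57 and 6.64 CPM (0.54, adjusted p = 0.229) and Fabp5 at 7.32 and 9.52 CPM (0.38, adjusted p = 0.371).

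Of the SLC1 transporters of glutamate and neutral amino acids, all 7 were tested and 0 called, with a median of 0.0054. Of the 7, 2 glutamate transporters had an unadjusted p under 0.05, against 10.6% of all genes. They were Slc1a1, at 2.18 ± 0.475 and 3.27 ± 0.838 CPM (0.58, edgeR adjusted p = 0.2502), and Slc1a6, at 0.764 and 1.08 CPM (0.49, adjusted p = 0.428). Slc1a4 was at 23.1 and 23.7 CPM (0.04, adjusted p = 0.952). Of the small heat shock proteins 7 of 9 were tested and 0 called, with a median of 0.01. Hspb6, at 36.5 ± 5.01 and 30.6 ± 2.29 CPM, had the smallest p (-0.26, adjusted p = 0.230), followed by Hspb9 (0.53, adjusted p = 0.716), Hspb1 (-0.13, adjusted p = 0.733) and Hspb8 (0.02, adjusted p = 0.966).

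Edn1 was the only relative of a marker gene that was called. This was 1 of 6 tested in the endothelin list without Ednrb, against 0.19% of all genes, and no relative in the other lists was called. It encodes endothelin-1, a peptide ligand of the receptors encoded by Ednra and Ednrb. Edn1 lay between 1.47 and 2.29 CPM in controls and between 3.25 and 6.16 CPM in mutants, with no overlap, against 0.997% of all genes. It averaged 1.92 ± 0.344 CPM in controls against 4.13 ± 1.13 CPM in mutants (SD, n = 6 each), for a log2 difference of 1.1 ± 0.18 (SE, edgeR adjusted p = 0.0246). Leaving out control 2, 4, 5 or 6, or mutant 6, put the adjusted p of Edn1 between 0.0535 and 0.0823, and with the Schwann cell covariate the log2 difference was 0.88 (adjusted p = 0.595). The covariate fit called 3 of all genes, against 35 without it. The other receptor gene, Ednra, was at 58.3 and 53.3 CPM (-0.13, adjusted p = 0.647) and the ligand gene Edn3 at 18.9 and 17.6 CPM (-0.10, adjusted p = 0.885). Of the endothelin genes 7 of 8 were tested, with a median of 0.08.

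Of the neuropeptide Y genes 5 of 8 were tested and 0 called, with a median of 0.19. Dpp4, the peptidase that trims the peptide, was at 92.6 ± 13.2 and 77.6 ± 11.95 CPM (-0.25, edgeR adjusted p = 0.429), and the receptor genes Npy1r and Npy4r at 1.87 and 2.14 CPM (0.19, adjusted p = 0.838) and at 0.359 and 0.416 CPM (0.22, adjusted p = 0.936). All 10 genes of hyaluronan and its receptor Cd44 were tested and 0 called, with a median of 0.02. Among them were Hyal1, which degrades hyaluronan, at 16.1 and 14.2 CPM (-0.18, adjusted p = 0.496), and Has3 and Has2, which make it, with log2 differences of 0.17 (adjusted p = 0.721) and 0.27 (adjusted p = 0.824). Prox2, the only other Prospero gene, was at 2.41 and 2.74 CPM (0.18, adjusted p = 0.813). In these lists the markers themselves are counted among the members.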

How the data were processed

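RNA-seq counts of 12 libraries were used, 6 per genotype as the sample labels give it. The authors deposited raw counts of reads per gene symbol, which were neither normalized nor pooled. Per the submitters' processing notes, Trimmomatic 0.32, STAR 2.4.2a, HTSeq 0.9.1, DESeq2 1.10.1 and GRCm38.p4 were used, while the annotation and strand setting are not given in the sources used here. A table of the authors' own DESeq2 comparison was not used. The 18459 genes whose mean count reached 5 were compared by the quasi-likelihood test of edgeR 4.0.16 (R 4.3.3, TMM, robust estimation, no covariates), adjusted over all of them, and called at an adjusted p under 0.05. CPM values were computed from the deposited counts with the TMM factors. The test was checked on simulated counts. DESeq2 1.42.0, limma-voom (limma 3.58.1) and other settings were alternatives. Permutation tests used log2(CPM + 0.1), exactly over all divisions of the mice for the genotypes and with 100000 permutations within genotypes for correlations, adjusted over 90 pairs with marker levels and over 36 pairs of the 9 genes.

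Positions, exons and lengths came from GENCODE M21 on GRCm38 and promoters from RefSeq on GRCm38.p6, in which 8 of the 9 genes were matched. The 9 genes and all lists were chosen with earlier results of these data known, and the lists are not independent evidence. Genes named are the 9, Jag1 and Sox2, for each list those called and the 4 with the smallest p, and for each of the 9 the 3 genes most like it, of which 1 for Npy and 1 for Cryab are not reported here. Within a genotype, libraries differed beyond sampling noise (chi-square per degree of freedom 14.4 to 76.6 over 30 pairs), and each was counted as 1 mouse.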

Additional observations from a re-analysis of the deposited data

Results flagged for a closer look

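In 2 of 34 groups of 6 mice examined for the 9 genes and the marker lists, 1 mouse stood apart from the others by more than Dixon's criterion allows, and chance alone gives this in about 1 of 20 groups (5%). Prox1 in mutant 2 was at 23.2 CPM, while the other mutants lay between 9.82 and 14.7 CPM. Mutant 2 also had the second highest level of Schwann cell markers, while mutant 1, which had the highest, was at 13.8 CPM for Prox1. The summed strial marginal cell markers of control 4 were at 867 CPM, while the other controls lay between 1208 and 1301 CPM. Control 4 was also the control with the lowest Schwann cell markers, at 299 CPM, and with the lowest Prox1 and the highest Npy.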

How the results depend on the processing

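None of the 9 genes was called under any alternative, and of their log2 differences under alternatives 205 kept their sign and 20 changed it. With the neuron and Schwann cell levels together as covariates the values that changed sign were 0.0349 for S100b, 0.0714 for Slc1a3, -0.43 for Prox1, -0.0925 for Cryab and -0.25 for Ednrb. With the Schwann cell level alone they were 0.0297 for S100b, 0.035 for Slc1a3, -0.46 for Prox1, -0.19 for Cryab and -0.27 for Ednrb, and with the neuron level alone -0.00201 for Prox1 and -0.011 for Cd44. Cryab was -0.00976 with limma-voom and -0.0106 with the replicate block, and without mutants 1 and 2 it was -0.102 and Prox1 -0.0300. Leaving out each mouse in turn put S100b between -0.0888 and 0.0134 and Cryab between -0.102 and 0.0711, with -0.00662, -0.000875 and -0.102 for Cryab without control 1, control 2 and mutant 1. The other 7 genes kept their sign when any 1 mouse was left out. The cause of these shifts was not tested.

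The number of genes called among all was 35, and it was 619 with DESeq2, 19 with limma-voom, 57 with no filter, 131 with the replicate block, 23 with the Xist level as a covariate, 8 at an adjusted p under 0.01, 1 with both marker levels as covariates, 3 with the Schwann cell level, 2 with the neuron level and 14 to 356 when 1 mouse was left out. Of the 28 other supporting cell genes 2 were called, and 6 with DESeq2, 1 at an adjusted p under 0.01, 0 with any of the 3 covariate fits and 1 to 3 when 1 mouse was left out. Among the families 1 gene was called, and 2 with DESeq2, 0 with any of the 3 covariate fits and 0 to 1 when 1 mouse was left out. The fits with the Schwann cell level alone or the neuron level alone, and without mutants 1 and 2, were chosen after seeing the data.

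Replicate numbers were not shown to pair the mice. Over 6 same-numbered pairs the deviations correlated between -0.285 and 0.450, above 0.1 in 3, and 2 of 6 controls were closest to the mutant of their number. With the block Sox2 was called (log2 fold change -0.44, edgeR adjusted p = 0.0467). With log2(CPM + 1) no exact permutation p moved across 0.05, and the number of pairs that passed with marker levels by Pearson's r was again 2, while for Prox1 with the Schwann cell list the permutation p of Spearman's rho adjusted over the pairs went from 0.0459 to 0.113. The place of Slc1a3 in the order of levels went from 7 to 5 with the longest transcript. Precision is set here by how much mice of a genotype vary, since counting error is smaller.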

Other observations

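For each marker gene the genes whose deviations from the genotype mean were most like its own over the 12 mice were sought among 14192 genes whose mean count reached 50, and up to 3 of the highest are given with Pearson's r as a description. For S100a1 they were Dpy30 (r = 0.98), Naa38 (0.97) and Anapc13 (0.97), and for S100b Ocm (0.93), Ppp1r11 (0.91) and Rinl (0.91). Ocm encodes oncomodulin, a calcium buffer of outer hair cells. For Prox1 they were Slc9a3 (0.94), Gjc3 (0.94) and Peli2 (0.93), and for Ednrb Fgf10 (0.96), B3galt2 (0.96) and Gjc3 (0.93). Gjc3, which encodes the connexin 29 of myelinating glia, was the only gene named for more than 1 marker gene. For Slc1a3 they were Gtf2e1 (0.98), Msh6 (0.94) and Ubfd1 (0.92), and for Npy A930003A15Rik (0.92) and Ipo11 (0.90). For Fabp7 they were G6pdx (0.96), Sec61a1 (0.95) and Cdipt (0.94), for Cd44 Ago4 (0.98), Mtss1 (0.91) and Homer1 (0.90), and for Cryab Ecscr (0.96) and Ifi35 (0.93). edgeR called 0 of the genes named here between the genotypes, with adjusted p from 0.129 to 0.998.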
